A study of Mus musculus with 15 samples.

Results

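The 32 genes described here encode the machinery with which a mouse cell makes cholesterol and fatty acids, and the factors that switch that machinery on. They were picked by gene symbol, 32 of the 35880 genes in the deposited table, and all 32 passed the filter on low values and were tested. They comprise 5 regulators of the sterol response, 7 genes of the mevalonate pathway, 9 of the later sterol steps, 1 sterol carrier, 4 of fatty acid supply and synthesis and 6 of desaturation and elongation. RNA was sequenced from LL2/Luc2 cells, a luciferase-marked mouse Lewis lung carcinoma line grown with serum. LL2 WT is the parental line, KEAP1 KO #1, #2 and #3 are CRISPR knockouts of Keap1, and NRF2 KO is a CRISPR knockout of Nfe2l2, the gene of NRF2. Each knockout line is 1 clone grown from a single cell, and each line was sequenced as 3 biologic replicates, 15 samples in all. The study's methods call the replicates biologic without saying whether they were separate cultures, so p-values measure the spread between these samples. The tests compare lines, and every knockout line went through editing and cloning while LL2 WT is the parental line. In each comparison with LL2 WT, the effect of a genotype and that of having made and picked a clone cannot be told apart. Changes shared by the 3 KEAP1 KO clones also carry what cloning does to every line. NRF2 KO has only 1 clone.

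KEAP1 is the adaptor that marks NRF2 for destruction, so its loss lets NRF2 build up and drive its target genes. Sterol and fatty acid synthesis is governed by another set of factors, the SREBPs, which are held in the endoplasmic reticulum by SCAP and the INSIG proteins when sterols are plentiful and travel to the nucleus when sterols run short. SREBP-2 acts mainly on cholesterol genes and SREBP-1 mainly on fatty acid genes, and Insig1 is itself a target that feeds back on the pathway.

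All values are CPM, each gene's count scaled to the sample's total, and CPM are not divided by gene length, so levels are compared between lines and not between genes. Differences are log2 fold changes on log2(CPM + 0.1) from limma, with an adjusted p over all 14652 genes tested. A gene is said to have risen or fallen where the adjusted p was under 0.05. The depth of each sample is unknown from CPM, which limits what can be said of low values. Keap1 itself was at 22.0 to 24.0 CPM in LL2 WT and 21.6 to 24.8 in NRF2 KO. The clones had less, KEAP1 KO #1 10.8 to 12.5, KEAP1 KO #2 4.28 to 7.29 and KEAP1 KO #3 3.78 to 6.83. Nqo1, a target of NRF2, was at 26.1 to 36.5 CPM in LL2 WT, at 253 to 545 in the 3 clones and at 8.55 to 11.0 in NRF2 KO. The keratins Krt8 and Krt18 were at 65.1 CPM or more in every sample, but Epcam, Cdh1 and Nkx2-1, which define lung epithelium, did not reach 0.1 CPM in any, and Sftpc, Sftpb and Napsa stayed at or below 2.18. The 5 leukocyte, 2 adipocyte and 2 hepatocyte markers stayed at or below 0.214 CPM in all samples. Of the 4 tested lung epithelium markers, Krt8, Krt18 and Napsa fell and Sftpb rose in KEAP1 KO #1, while Krt8 and Sftpb rose and Napsa fell in KEAP1 KO #2 and #3, and none passed in NRF2 KO. Of the 2 endothelial markers, Pecam1 was at 2.42 to 7.17 CPM and passed in no line. Cdh5 was at 0 to 0.0449 CPM in LL2 WT and rose in KEAP1 KO #2 (0.766 to 0.901 CPM, adjusted p = 0.000338) and KEAP1 KO #3 (0.971 to 1.54 CPM, adjusted p = 8.87e-05). The part of these markers in the results was not tested.

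The stretch of 250 bases before an annotated transcript start, which need not be the outermost start of the gene, is shown for 4 members whose behaviour the results turn on, from the RefSeq promoters of GRCm38.p6, which held 25 of the 32 members. Hmgcs1 was the only one of those 25 with the core of the sterol regulatory element, Insig1 and Fasn moved in opposite directions, and Fads2 fell furthest. Capitals mark matches to 3 motifs searched on both strands, TCACNCCAC for the sterol element core, CCAAT for the CCAAT box and TGACNNNGC for the core of the antioxidant response element that NRF2 binds. The 2 matches in Fasn nearest its start overlap each other.
Hmgcs1, chr13:119690101-119690350, plus strand: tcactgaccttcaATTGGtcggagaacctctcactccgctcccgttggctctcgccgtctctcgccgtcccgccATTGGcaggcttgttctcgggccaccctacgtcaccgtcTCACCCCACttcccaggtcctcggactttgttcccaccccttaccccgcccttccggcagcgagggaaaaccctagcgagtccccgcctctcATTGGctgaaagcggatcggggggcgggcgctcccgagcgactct
Insig1, chr5:28071162-28071411, plus strand: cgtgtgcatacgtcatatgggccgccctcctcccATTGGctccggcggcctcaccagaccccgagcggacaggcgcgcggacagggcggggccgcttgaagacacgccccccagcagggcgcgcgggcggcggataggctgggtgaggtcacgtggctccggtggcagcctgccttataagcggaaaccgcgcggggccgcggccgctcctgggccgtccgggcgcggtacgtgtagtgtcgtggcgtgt
Fasn, chr11:120824548-120824797, minus strand: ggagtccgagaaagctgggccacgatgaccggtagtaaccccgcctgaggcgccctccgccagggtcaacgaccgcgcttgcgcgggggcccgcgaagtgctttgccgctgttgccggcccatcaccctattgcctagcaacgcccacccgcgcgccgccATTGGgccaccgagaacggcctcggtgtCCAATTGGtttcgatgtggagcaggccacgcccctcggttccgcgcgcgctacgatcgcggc
Fads2, chr19:10101504-10101753, minus strand: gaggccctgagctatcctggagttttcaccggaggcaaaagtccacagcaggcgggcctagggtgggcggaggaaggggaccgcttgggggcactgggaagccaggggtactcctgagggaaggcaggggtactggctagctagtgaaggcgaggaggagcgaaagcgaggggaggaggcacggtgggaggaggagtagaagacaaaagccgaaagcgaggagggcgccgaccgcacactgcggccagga

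In windows of 300 bases (250 before and 50 after the start), the CCAAT box was found in 20 of the 25 members, 80.0%, against 41.1% of the 27025 genes in the table. Those 27025 include genes that were not tested here, while all members were. A gene counted if any of its promoters matched, and the 25 members had 33 promoters where the 27025 genes had 32851. The sterol element core was found in 1 of 25 members, 4.0%, against 1.44% of all genes, and its match in Hmgcs1, TCACCCCAC, begins 137 bases before the start. The antioxidant element core was found in 5 members, 20.0%, against 14.0% of all genes. The 5 were Mvk, Pmvk, Hsd17b7, Dhcr7 and Acss2. The Fads2 window held none of the 3 motifs. These are letter matches in a short window and say nothing of binding.

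Against LL2 WT, sterol and fatty acid genes did not move as 1 block in the KEAP1 KO clones. In KEAP1 KO #1, 2 members rose and 3 fell, 6.25% and 9.38% of the 32, where 15.9% and 7.25% of all tested genes did. In KEAP1 KO #2, 3 members rose and 11 fell, 9.38% and 34.4%, against 17.3% and 14.6% of all genes. In KEAP1 KO #3, 4 members rose and 7 fell, 12.5% and 21.9%, against 16.6% and 14.8%. In NRF2 KO no member passed the limma test, and 2 did at an unadjusted p under 0.05, where 0.13% of all genes rose, 0.491% fell and 11.2% were at an unadjusted p under 0.05. The 4 comparisons share the LL2 WT samples.

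The median log2 fold change of the 32 genes was -0.20, -0.37 and -0.25 for clones KEAP1 KO #1, #2 and #3 and 0.04 for NRF2 KO. Over all tested genes the medians were 0.11, 0.03, 0.02 and 0.04. The median in KEAP1 KO #1 was 0.00 without LL2 WT replicate 2, the sample of that line in which sterol genes were highest, and that in KEAP1 KO #3 was -0.11. Past a 2-fold change, 1, 6 and 3 members remained in the 3 clones, where 8.54%, 13.7% and 13.4% of all genes did. Leaving out replicate 3 of KEAP1 KO #1 gave 2 in that clone, leaving out replicate 2 of LL2 WT gave 3, 6 and 7 in the clones, and leaving out replicate 3 of NRF2 KO gave 1, 6 and 5. The number that rose in KEAP1 KO #1 ranged from 0 without LL2 WT replicate 1 to 4 on leaving out replicate 2 of LL2 WT or replicate 3 of NRF2 KO, and was 1 without any of 10 other samples, all but KEAP1 KO #3 replicate 3 and NRF2 KO replicate 2. In KEAP1 KO #2 it was 1 without LL2 WT replicate 1 or 3 or KEAP1 KO #2 replicate 1 or 2. In KEAP1 KO #3 it was 2 without LL2 WT replicate 1 or 3 or KEAP1 KO #3 replicate 1 or 2, and 7 on leaving out replicate 2 of LL2 WT or replicate 3 of NRF2 KO. By the F test over the 5 lines, 15 members differed somewhere, 46.9%, against 37.6% of all genes.

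**Figure D1:**
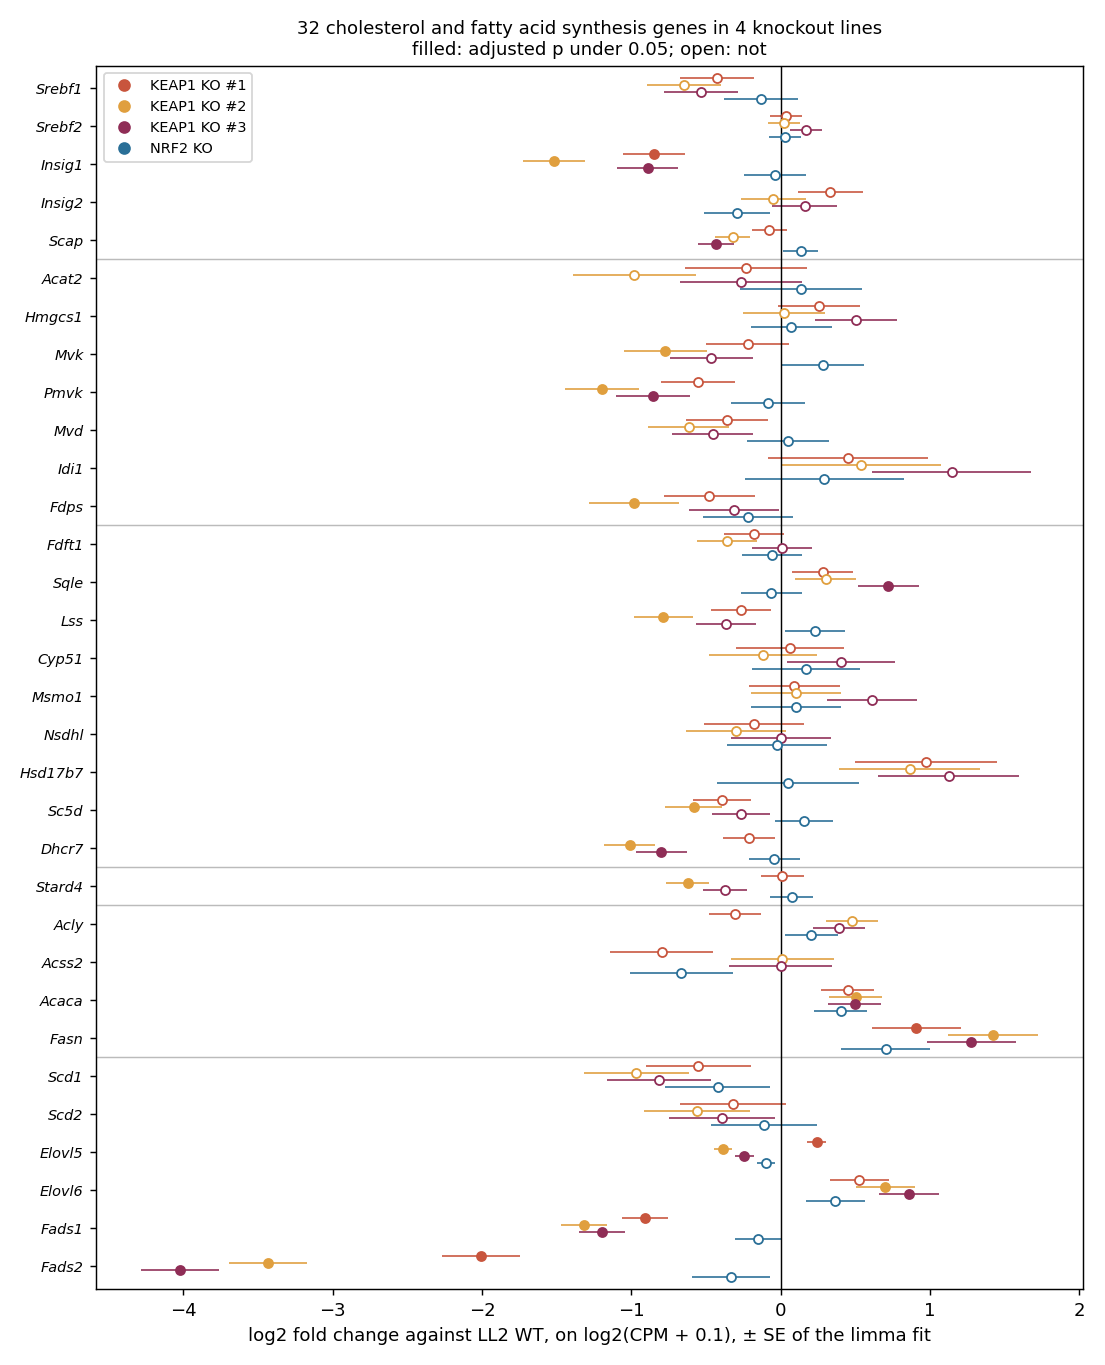
Log2 fold change against LL2 WT (x axis, on log2(CPM + 0.1)) of each of the 32 members (rows, grouped by role between grey lines) in the 4 knockout lines, with the standard error of the limma fit; filled points have an adjusted p under 0.05. Fads2 and Fads1 lie to the left and Fasn to the right in all 3 KEAP1 KO clones, while every NRF2 KO point is open.

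Across the clones, 5 members passed in all 3, 4 passed in 2, 7 passed in 1 and 16 passed in none, or 15.6%, 12.5%, 21.9% and 50% of the 32. Of all tested genes 13.7%, 14.9%, 15.8% and 55.7% did so, and the 3 comparisons share the LL2 WT samples. The 5 were Insig1, Fads1 and Fads2, which fell in each, Fasn, which rose in each, and Elovl5, which rose in KEAP1 KO #1 and fell in the others. The samples of a line lay wholly above those of LL2 WT for 3, 5 and 7 members in KEAP1 KO #1, #2 and #3, and wholly below them for 5, 13 and 9. Of all tested genes 24.6%, 23.4% and 22% lay wholly above and 12.4%, 18.6% and 18% wholly below. In NRF2 KO they lay wholly below for 2 members, Fads2 and Elovl5, and wholly above for none, where 4.53% and 8.68% of all genes did.

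Among the regulators, the 2 SREBP genes did not pass in any line, though they did in some alternative analyses. Srebf2, which encodes SREBP-2 (GRCm38.p6 chromosome 15, 82147269 to 82205379), was at 61.7, 64.6 and 69.8 CPM in LL2 WT. KEAP1 KO #1 had 64.2, 62.8 and 74.2 CPM, KEAP1 KO #2 had 63.3, 60.7 and 75.6, KEAP1 KO #3 had 69.9, 76.9 and 74.0 and NRF2 KO had 65.0, 74.5 and 61.1. The lines overlap, apart from the 3 samples of KEAP1 KO #3, which sit above every LL2 WT sample by a small margin. The log2 fold changes were 0.03, 0.02, 0.17 and 0.03, and their 95% intervals ran from -0.21 to 0.40 over the 3 clones, so a change of 2-fold lies outside each of them. The first, second and last of these values are below 0 under another scaling of the CPM (quantile normalization), at -0.10, -0.08 and -0.02, and all 3 lie within their standard error of 0.11. With sample weights the value in KEAP1 KO #3 was 0.27 and passed (adjusted p = 0.000595).

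Srebf1, which encodes SREBP-1, was at 51.3, 40.9 and 54.4 CPM in LL2 WT and 42.5, 34.6 and 59.1 in NRF2 KO. By line, KEAP1 KO #1 had 41.6, 26.5 and 42.5 CPM, KEAP1 KO #2 had 26.5, 28.3 and 39.6 and KEAP1 KO #3 had 27.5, 31.3 and 43.8. Replicate 3 was the highest sample in each of the 5 lines. KEAP1 KO #2 lies wholly below LL2 WT, and the other lines overlap it. Against LL2 WT, log2 fold changes were -0.43 (SE 0.25, adjusted p = 0.24), -0.65 (SE 0.25, adjusted p = 0.0629) and -0.53 (SE 0.25, adjusted p = 0.12) in the clones and -0.13 (SE 0.25, adjusted p = 0.89) in NRF2 KO. When the third replicates were given a batch term the adjusted p in the clones became 0.0421, 0.0041 and 0.0129, and the value in NRF2 KO was 0.05 without its replicate 2. In KEAP1 KO #2 the adjusted p was also under 0.05 without LL2 WT replicate 2 (0.0471), KEAP1 KO #1 replicate 2 (0.0463), KEAP1 KO #2 replicate 3 (0.0333) or NRF2 KO replicate 3 (0.0447). The same held in that clone with CPM rescaled by the median ratio (0.0328) or quantile normalized (0.0325). With sample weights the adjusted p was 0.0119, 2.25e-06 and 0.000115 in the clones and 0.0474 in NRF2 KO.

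Insig1 (GRCm38.p6 chromosome 5, 28071412 to 28078662), whose product keeps SCAP in the endoplasmic reticulum, fell in all 3 clones. It was at 81.0, 101 and 74.3 CPM in LL2 WT and 94.8, 93.1 and 63.4 in NRF2 KO. Samples of KEAP1 KO #1 had 46.8, 35.7 and 62.0 CPM, KEAP1 KO #2 had 27.7, 26.9 and 34.6 and KEAP1 KO #3 had 43.5, 42.3 and 51.5. Every clone sample lies below every LL2 WT and NRF2 KO sample, and KEAP1 KO #2 is the lowest of the lines. The fitted log2 fold changes were -0.85 (SE 0.21, adjusted p = 0.0105), -1.52 (SE 0.21, adjusted p = 0.000134) and -0.89 (SE 0.21, adjusted p = 0.00546). In NRF2 KO the value was -0.04 (SE 0.21, adjusted p = 0.97), and it was above 0 without NRF2 KO replicate 3 (0.15) or LL2 WT replicate 2 (0.09). In KEAP1 KO #1 the call was lost without KEAP1 KO #1 replicate 2 (-0.65, adjusted p = 0.0537) and in a fit of that clone and LL2 WT alone (adjusted p = 0.051).

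Insig2, its paralog, passed in none of the lines. It was at 48.7, 41.9 and 73.1 CPM in LL2 WT. Of the knockout lines, KEAP1 KO #1 had 65.0, 59.8 and 76.4 CPM, KEAP1 KO #2 had 46.1, 49.9 and 58.4, KEAP1 KO #3 had 53.8, 54.0 and 71.4 and NRF2 KO had 38.0, 36.5 and 58.4. Replicate 3 is the highest in every line and every knockout line overlaps LL2 WT. The log2 fold changes were 0.33, -0.05, 0.16 and -0.29. The second was 0.18 without LL2 WT replicate 3, and the third was -0.01 without LL2 WT replicate 2. In KEAP1 KO #1 the value of 0.33 passed with a replicate block (adjusted p = 0.021) and with replicate 3 as a batch term (adjusted p = 0.0178). It also passed at 0.44 with sample weights (adjusted p = 0.00244) and at 0.47 with replicates 1 and 2 only (adjusted p = 0.00756). In NRF2 KO it passed with sample weights (-0.33, adjusted p = 0.00609). Scap, the SREBP escort, ranged from 37.1 to 61.5 CPM and fell in KEAP1 KO #3 (-0.43, SE 0.12, adjusted p = 0.0144). Leaving out replicate 1 of LL2 WT gave an adjusted p of 0.0656, and leaving out replicate 1 of KEAP1 KO #3 gave 0.0573.

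Of the 7 mevalonate genes, which turn acetyl-CoA into isoprenoid units, 0 passed the limma test in KEAP1 KO #1, with 1 at an unadjusted p under 0.05, as were 36.3% of all genes. In the other clones 3 fell in KEAP1 KO #2 and 1 fell in KEAP1 KO #3, or 42.9% and 14.3%, where 14.6% and 14.8% of all genes fell. None rose. Pmvk (GRCm38.p6 chromosome 3, 89454541 to 89469014), phosphomevalonate kinase, was at 23.6, 32.2 and 21.9 CPM in LL2 WT and 28.9, 29.9 and 16.1 in NRF2 KO. KEAP1 KO #1 had 20.8, 13.2 and 19.2 CPM, KEAP1 KO #2 had 10.06, 10.8 and 12.7 and KEAP1 KO #3 had 13.6, 12.13 and 16.8. Each clone lies wholly below LL2 WT, and NRF2 KO replicate 3 stands far below the others of its line. Against LL2 WT, log2 fold changes were -0.55 (SE 0.25, adjusted p = 0.13), -1.19 (SE 0.25, adjusted p = 0.0028) and -0.86 (SE 0.25, adjusted p = 0.0186). For KEAP1 KO #3 the adjusted p was 0.0629 on leaving out replicate 2 of LL2 WT, and 0.0558 and 0.0752 on leaving out its own replicates 1 and 2.

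Fdps, which makes farnesyl diphosphate, averaged 146 ± 37.6 CPM (mean ± SD, n = 3) in LL2 WT and 72.6 ± 8.45 in KEAP1 KO #2, where it fell (-0.98, SE 0.30, adjusted p = 0.026). The call was lost without LL2 WT replicate 1, LL2 WT replicate 2, KEAP1 KO #2 replicate 1 or KEAP1 KO #2 replicate 2, at adjusted p from 0.0637 to 0.0799. As 27.9% of its 31-base stretches also occur in other transcripts, its level is uncertain. Mvk, mevalonate kinase, averaged 17.6 ± 6.53 CPM in LL2 WT and 9.84 ± 1.91 in KEAP1 KO #2 (-0.77, SE 0.28, adjusted p = 0.0481). That call was lost on leaving out any of 12 samples, all but LL2 WT replicate 3, KEAP1 KO #2 replicate 3 and NRF2 KO replicate 3, at adjusted p up to 0.17. The other 4 genes did not pass in any line. Hmgcs1, the cytosolic HMG-CoA synthase whose promoter holds the sterol element core, had log2 fold changes of 0.26, 0.02 and 0.50 in the clones, while Mvd had -0.36, -0.62 and -0.46. Idi1 had values of 0.45, 0.54 and 1.14 with a standard error of 0.53, and Acat2 had -0.23, -0.98 and -0.26. Both levels are uncertain, as 18.8% of the 31-base stretches of Idi1 and 43.7% of those of Acat2 occur in other transcripts, for Acat2 chiefly those of Acat3.

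Of the 9 later sterol genes, 0 passed the limma test in KEAP1 KO #1, and 0 were at an unadjusted p under 0.05. Of the same genes 3 fell in KEAP1 KO #2, and in KEAP1 KO #3 Sqle rose and Dhcr7 fell. The 3 are 33.3% of the 9, against 14.6% of all genes, and the 1 each way is 11.1%, against 16.6% risen and 14.8% fallen. Dhcr7 (GRCm38.p6 chromosome 7, 143823167 to 143848410), the reductase of the last step to cholesterol, was at 18.9, 23.2 and 16.2 CPM in LL2 WT. By line, KEAP1 KO #1 had 17.4, 14.9 and 17.6 CPM, KEAP1 KO #2 had 9.73, 8.97 and 9.79, KEAP1 KO #3 had 11.2, 11.2 and 10.6 and NRF2 KO had 19.6, 23.5 and 14.1. KEAP1 KO #2 and #3 lie wholly below the other 3 lines, and KEAP1 KO #1 overlaps LL2 WT. The fitted log2 fold changes were -0.21 (SE 0.17, adjusted p = 0.41), -1.01 (SE 0.17, adjusted p = 0.000712) and -0.80 (SE 0.17, adjusted p = 0.00342). KEAP1 KO #1 was above KEAP1 KO #2 by 0.80 (adjusted p = 0.0099). It was above KEAP1 KO #3 by 0.59 (adjusted p = 0.0413), a call lost on leaving out any of 11 samples, all but LL2 WT replicates 2 and 3 and NRF2 KO replicates 2 and 3, at adjusted p up to 0.123. It was also lost with CPM rescaled by the median ratio (adjusted p = 0.114).

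Sqle, squalene epoxidase, was at 58.8, 83.0 and 60.8 CPM in LL2 WT. Samples of KEAP1 KO #1 had 79.7, 76.7 and 87.1 CPM, KEAP1 KO #2 had 87.5, 83.3 and 76.3, KEAP1 KO #3 had 114, 117 and 99.96 and NRF2 KO had 63.4, 91.5 and 44.9. The 3 samples of KEAP1 KO #3 are the highest of the 15. Its log2 fold change there was 0.72 (SE 0.20, adjusted p = 0.0168), and those in KEAP1 KO #1 and #2 were 0.28 and 0.30. The call was lost without LL2 WT replicate 1, LL2 WT replicate 3, KEAP1 KO #3 replicate 1 or KEAP1 KO #3 replicate 2, at adjusted p from 0.0532 to 0.0658.

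Lss, lanosterol synthase, fell in KEAP1 KO #2 from 18.0 ± 4.22 CPM in LL2 WT to 10.28 ± 1.05 (-0.78, SE 0.20, adjusted p = 0.00972). Sc5d, lathosterol oxidase, went from 52.3 ± 11.3 to 34.6 ± 4.26 CPM in the same clone (-0.58, SE 0.19, adjusted p = 0.0352). The Sc5d call was lost on leaving out replicate 2 of LL2 WT (adjusted p = 0.118) or any of the 3 samples of KEAP1 KO #2 (0.0591 to 0.108). Stard4, a carrier of free cholesterol, fell there as well, from 24.0 ± 2.71 to 15.5 ± 0.923 CPM (-0.62, SE 0.14, adjusted p = 0.00565), and was lower than in KEAP1 KO #1, where it averaged 24.2 ± 2.64. That difference, 0.63 (adjusted p = 0.0135), was lost without KEAP1 KO #1 replicate 1, KEAP1 KO #1 replicate 3 or KEAP1 KO #2 replicate 1 (adjusted p from 0.0529 to 0.0646). Fdft1, Cyp51, Msmo1, Nsdhl and Hsd17b7 passed in no line. Of these, Hsd17b7 had log2 fold changes of 0.97, 0.86 and 1.13 in the clones with a standard error of 0.47, the widest of the 5.

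The mevalonate and sterol genes varied together between replicates. In LL2 WT replicate 2 all 16 lay above the mean of their line, by 0.43 on average on the log2 scale, and in NRF2 KO replicate 2 all 16 did, by 0.64. In NRF2 KO replicate 3 all 16 lay below, by 0.75. In the KEAP1 KO clones the average deviation of a sample was between -0.16 and 0.11. The median SD of the 32 members was 0.34 (log2) in LL2 WT and 0.43 in NRF2 KO, against 0.16 to 0.17 in the clones. Over all tested genes it was 0.29, 0.25 and 0.19 to 0.22. With only replicates 1 and 2 of every line, 9, 17 and 10 members fell in KEAP1 KO #1, #2 and #3, 2, 2 and 4 rose, and in NRF2 KO none passed. That fit was chosen after seeing the data, and the share of all genes called in it was not computed. The part of these replicate differences in the results was not tested further.

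**Figure D2:**
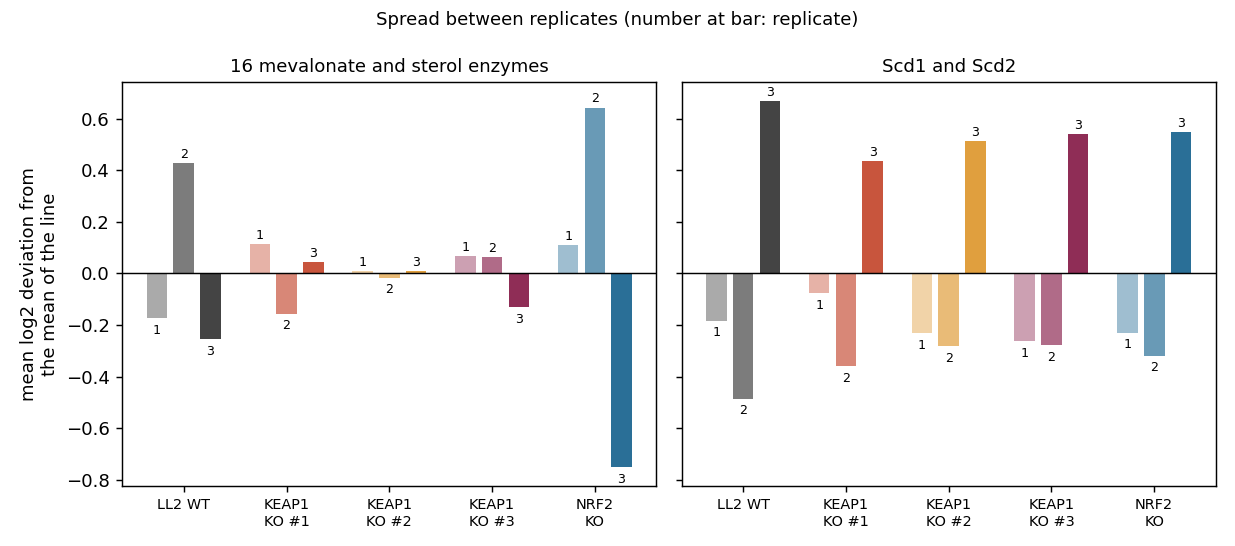
Mean deviation of each sample from the mean of its line (y axis, log2) for the 16 mevalonate and sterol enzymes (left) and for Scd1 and Scd2 (right); the number at each bar is the replicate. The sterol enzymes are high in replicate 2 of LL2 WT and NRF2 KO and low in replicate 3 of NRF2 KO, whereas the Scd genes are highest in replicate 3 of all 5 lines.

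Of the 4 genes of fatty acid supply and synthesis, 1 rose in KEAP1 KO #1, 2 rose in each of KEAP1 KO #2 and #3, and none fell. That is 25%, 50% and 50% risen, where 15.9%, 17.3% and 16.6% of all genes rose and 7.25%, 14.6% and 14.8% fell. In each clone 3 were at an unadjusted p under 0.05, where 36.3%, 42.9% and 42.6% of all genes were. Fasn (GRCm38.p6 chromosome 11, 120805958 to 120825166), fatty acid synthase, which builds palmitate, was at 33.9, 60.1 and 27.6 CPM in LL2 WT. Of the knockout lines, KEAP1 KO #1 had 72.1, 80.3 and 64.4 CPM, KEAP1 KO #2 had 112, 103 and 93.9, KEAP1 KO #3 had 92.7, 106 and 81.9 and NRF2 KO had 58.3, 101 and 41.3. Every clone sample lies above every LL2 WT sample, while NRF2 KO spans the range from below LL2 WT replicate 2 to the level of the clones. The log2 fold changes were 0.91 (SE 0.30, adjusted p = 0.0437), 1.42 (SE 0.30, adjusted p = 0.00308) and 1.28 (SE 0.30, adjusted p = 0.00582) in the clones and 0.70 (SE 0.30, adjusted p = 0.4) in NRF2 KO. In KEAP1 KO #1 the call was lost on leaving out any of 11 samples, all but LL2 WT replicate 2, KEAP1 KO #3 replicate 3 and NRF2 KO replicates 2 and 3 (adjusted p up to 0.162), and with the CPM rescaled by the median ratio (adjusted p = 0.097). The mean of the clones was not separated from NRF2 KO (0.50, adjusted p = 0.16).

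Acaca, acetyl-CoA carboxylase, which commits acetyl units to fatty acids, was at 37.8, 52.5 and 30.9 CPM in LL2 WT. KEAP1 KO #1 had 58.5, 50.4 and 53.0 CPM, KEAP1 KO #2 had 56.9, 53.5 and 57.3, KEAP1 KO #3 had 51.0, 53.3 and 63.4 and NRF2 KO had 51.8, 63.3 and 43.2. LL2 WT replicates 1 and 3 lie below all other samples. Against LL2 WT, log2 fold changes were 0.45 (SE 0.18, adjusted p = 0.0828), 0.50 (SE 0.18, adjusted p = 0.0444) and 0.50 (SE 0.18, adjusted p = 0.0473) in the clones and 0.40 in NRF2 KO. For KEAP1 KO #2 significance was lost on leaving out any of 11 samples, all but LL2 WT replicate 2, KEAP1 KO #3 replicate 3 and NRF2 KO replicates 2 and 3 (adjusted p up to 0.175). That in KEAP1 KO #3 was lost on leaving out any of 12, all but LL2 WT replicate 2 and NRF2 KO replicates 2 and 3 (adjusted p up to 0.182), and both were lost with rescaled CPM (adjusted p = 0.0545 for each). Of its 31-base stretches, 33.4% occur in other transcripts, chiefly Gm5182, so its level is uncertain.

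Acly, ATP citrate lyase, which supplies cytosolic acetyl-CoA, set the clones apart from each other. It was at 64.2, 83.3 and 50.9 CPM in LL2 WT. By line, KEAP1 KO #1 had 52.4, 52.6 and 52.1 CPM, KEAP1 KO #2 had 93.8, 89.5 and 88.0, KEAP1 KO #3 had 87.1, 88.7 and 79.3 and NRF2 KO had 75.1, 95.7 and 58.2. It passed in no line against LL2 WT, but KEAP1 KO #1 was below KEAP1 KO #2 (-0.79, SE 0.17, adjusted p = 0.0119) and below KEAP1 KO #3 (-0.70, SE 0.17, adjusted p = 0.0205). The first call was lost without KEAP1 KO #2 replicate 1 (adjusted p = 0.0505). The second was lost on leaving out any of the 3 samples of KEAP1 KO #1 or KEAP1 KO #3 replicate 1 or 2, at adjusted p from 0.0565 to 0.0743. Acss2, which makes acetyl-CoA from acetate, ranged from 5.26 to 19.2 CPM and did not pass.

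Fads2 and Fads1, the desaturases that turn linoleic and alpha-linolenic acid into arachidonic and eicosapentaenoic acid in concert with Elovl5, fell in all 3 clones. Fads2 had the largest log2 fold change of the 32 in each clone. Fads2 (GRCm38.p6 chromosome 19, 10062765 to 10101503), the delta-6 desaturase, was at 34.2, 35.4 and 32.6 CPM in LL2 WT and 29.0, 28.0 and 24.4 in NRF2 KO. Samples of KEAP1 KO #1 had 10.204, 5.90 and 9.83 CPM, KEAP1 KO #2 had 2.31, 2.74 and 4.54 and KEAP1 KO #3 had 1.78, 1.69 and 2.68. The clones do not overlap LL2 WT or NRF2 KO, and KEAP1 KO #1 lies wholly above the other clones. The fitted log2 fold changes were -2.01 (SE 0.26, adjusted p = 0.000169), -3.43 (SE 0.26, adjusted p = 9.18e-07) and -4.02 (SE 0.26, adjusted p = 2.22e-07), and that in NRF2 KO was -0.33 (SE 0.26, adjusted p = 0.71). KEAP1 KO #1 was above KEAP1 KO #2 by 1.42 (SE 0.26, adjusted p = 0.0037) and above KEAP1 KO #3 by 2.01 (SE 0.26, adjusted p = 0.00037), while KEAP1 KO #3 and KEAP1 KO #2 were not separated (-0.59, adjusted p = 0.56).

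Fads1 (GRCm38.p6 chromosome 19, 10182877 to 10196874), the delta-5 desaturase, was at 69.0, 59.0 and 76.3 CPM in LL2 WT and 62.2, 55.1 and 66.0 in NRF2 KO. Of the knockout lines, KEAP1 KO #1 had 37.0, 31.8 and 39.9 CPM, KEAP1 KO #2 had 24.9, 23.9 and 33.4 and KEAP1 KO #3 had 27.5, 26.8 and 34.9. Again every clone sample lies below every sample of the other 2 lines. The log2 fold changes were -0.91 (SE 0.15, adjusted p = 0.00117), -1.32 (SE 0.15, adjusted p = 3.89e-05) and -1.20 (SE 0.15, adjusted p = 8.17e-05), and that in NRF2 KO was -0.15. The calls of Fads1 and Fads2 in the clones were kept in all 27 alternative analyses. No 31-base stretch of Fads1 and 0.729% of those of Fads2 occur in another gene's transcripts.

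**Figure D3:**
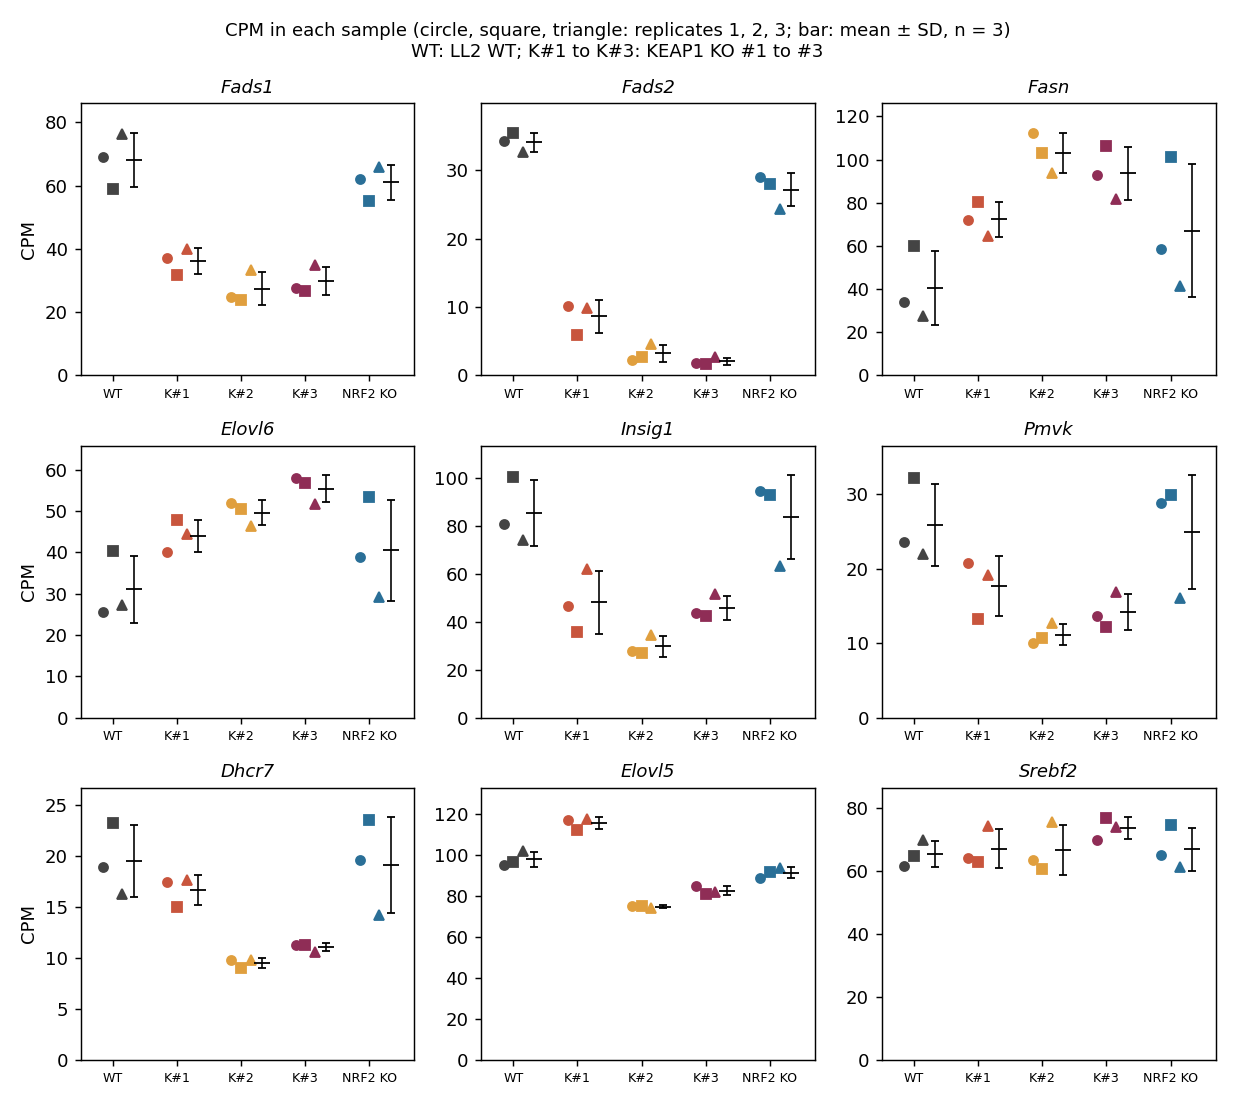
CPM (y axis, from 0) of 9 members in each of the 15 samples (symbols: replicates 1, 2 and 3) with the mean ± SD of each line (n = 3). Fads1, Fads2 and Insig1 of the 3 KEAP1 KO clones sit below LL2 WT, Fasn sits above it, Elovl5 lies above in KEAP1 KO #1 and below in the other clones, and Srebf2 stays between 60.7 and 76.9 CPM throughout.

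The Fads genes lie side by side on chromosome 19, and their neighbourhood was examined after these values had been seen. Within 200 kb on either side of Fads2, 9 protein-coding genes were tested, and 5 of them that follow each other among the tested genes, Fth1, Rab3il1, Fads3, Fads2 and Fads1, were lower in all 3 clones, as were 4.76% of all tested genes. The 5 include Fads2 and Fads1, already seen to fall when the window was set, so that share is no test of the neighbourhood. Fads3 (GRCm38.p6 chromosome 19, 10040855 to 10060113), the third gene of the family, was at 9.73, 8.01 and 8.19 CPM in LL2 WT and 7.32, 9.55 and 9.08 in NRF2 KO. KEAP1 KO #1 had 1.71, 0.991 and 2.95 CPM, KEAP1 KO #2 had 1.43, 1.41 and 2.24 and KEAP1 KO #3 had 0.802, 1.06 and 0.479, with log2 fold changes of -2.26 (SE 0.35, adjusted p = 0.000561), -2.31 (SE 0.35, adjusted p = 0.000271) and -3.36 (SE 0.35, adjusted p = 1.20e-05). Rab3il1, which encodes a guanine nucleotide exchange factor for Rab GTPases and lies next to Fads3, was at 6.99, 3.999 and 8.52 CPM in LL2 WT. By line, KEAP1 KO #1 had 0.107 to 0.291 CPM, KEAP1 KO #2 had 0.0356 to 0.0615 and KEAP1 KO #3 had 0 to 0.0168, each time with an adjusted p of 0.00018 or less. In NRF2 KO it was at 5.39, 0.948 and 6.72 CPM (adjusted p = 0.63).

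Fth1, the ferritin heavy chain, fell by much less, from a mean of 3789 CPM in LL2 WT to 2296, 2583 and 2671 in the clones, and it was also lower in NRF2 KO at 2740 (adjusted p = 0.0246). On the other side of Fads1, Fen1 had log2 fold changes of 0.63, 0.90 and 0.72 in the clones and did not pass. Tmem258 fell in KEAP1 KO #1 (-0.29, adjusted p = 0.0272) and did not pass in the other lines. Beyond them Dagla rose in KEAP1 KO #2 and #3 (0.87 and 0.89), and at the far edge Incenp rose in KEAP1 KO #2 and #3 (0.65 and 0.39). Whether the DNA of this stretch differs between the lines was not tested. Best1 and Myrf in the same window did not pass the filter. The alternative analyses were run for Fads1, Fads2 and Fads3 and not for these neighbours.

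**Figure D4:**
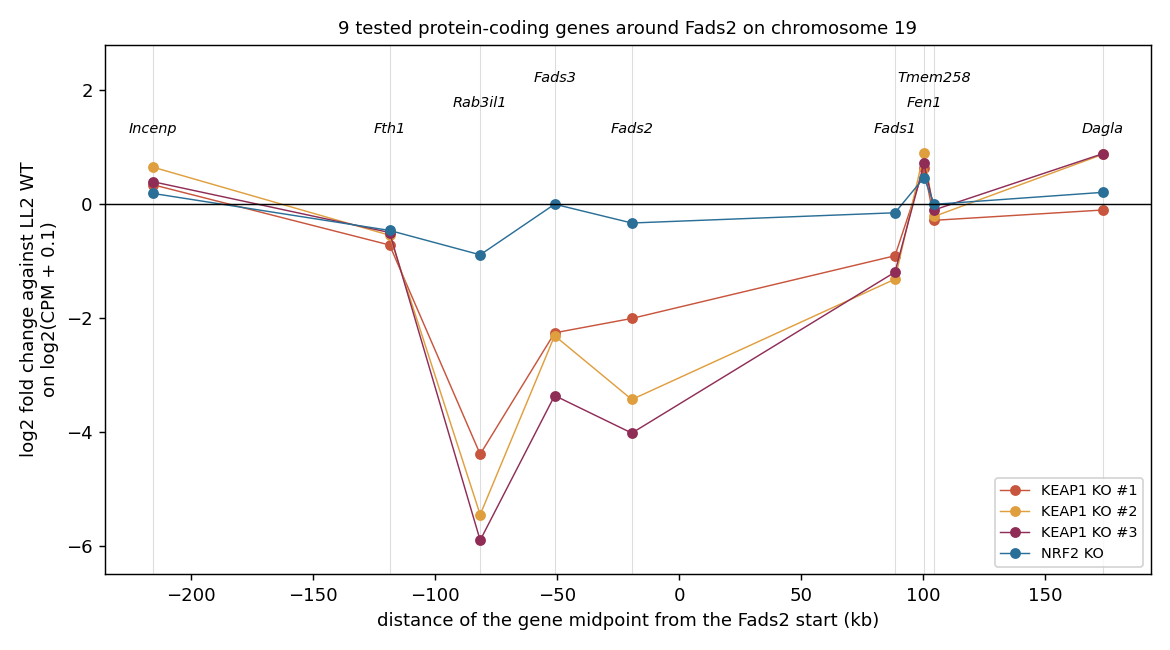
Log2 fold change against LL2 WT (y axis, on log2(CPM + 0.1)) of the 9 tested protein-coding genes around Fads2, placed by the distance of each gene's midpoint from the Fads2 start (x axis, kb), for the 4 knockout lines; lines only join the points of 1 knockout line, and Rab3il1 is close to 0 CPM in the clones. The trough from Rab3il1 through Fads3 and Fads2 to Fads1 is present in the 3 KEAP1 KO clones, and Fen1 and Dagla on the right lie near or above 0.

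Of the elongases, Elovl6, which lengthens palmitate to stearate, was at 25.5, 40.4 and 27.4 CPM in LL2 WT. Samples of KEAP1 KO #1 had 40.1, 47.8 and 44.4 CPM, KEAP1 KO #2 had 52.0, 50.6 and 46.4, KEAP1 KO #3 had 58.0, 56.7 and 51.6 and NRF2 KO had 38.8, 53.5 and 29.3. The clones #2 and #3 lie above LL2 WT in every sample, and #1 does so but for 1 sample. Against LL2 WT, log2 fold changes were 0.53 (SE 0.20, adjusted p = 0.0723), 0.70 (SE 0.20, adjusted p = 0.0168) and 0.86 (SE 0.20, adjusted p = 0.00537). In KEAP1 KO #2 the call was lost without LL2 WT replicate 1, LL2 WT replicate 3, KEAP1 KO #2 replicate 1 or KEAP1 KO #2 replicate 2, at adjusted p from 0.0522 to 0.0725.

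Elovl5 (GRCm38.p6 chromosome 9, 77917365 to 77984519), which lengthens polyunsaturated fatty acids between the 2 Fads steps, had the smallest standard error of the 32. It was at 95.1, 96.2 and 102 CPM in LL2 WT. Of the knockout lines, KEAP1 KO #1 had 117, 112 and 117 CPM, KEAP1 KO #2 had 75.1, 75.1 and 73.8, KEAP1 KO #3 had 84.7, 81.0 and 81.7 and NRF2 KO had 88.5, 91.6 and 93.6. No 2 of the 5 lines overlap. Its log2 fold changes were 0.24 (SE 0.06, adjusted p = 0.0145), -0.39 (SE 0.06, adjusted p = 0.000502) and -0.24 (SE 0.06, adjusted p = 0.0103). KEAP1 KO #1 was above KEAP1 KO #2 by 0.63 (SE 0.06, adjusted p = 5.56e-05) and above KEAP1 KO #3 by 0.48 (SE 0.06, adjusted p = 0.00037), and these differences between clones held in all 27 alternative analyses. Fitted on KEAP1 KO #3 and LL2 WT alone, the fall in that clone was lost (adjusted p = 0.12). The rise in KEAP1 KO #1 did not hold when the CPM were rescaled by the median ratio (0.14, adjusted p = 0.222) or quantile normalized (0.10, adjusted p = 0.434), or without LL2 WT replicate 1 (0.22, adjusted p = 0.0527).

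Scd1 and Scd2, the stearoyl-CoA desaturases that make oleate, passed in no line. Scd1 was at 162, 129.6 and 305 CPM in LL2 WT. KEAP1 KO #1 had 114, 105 and 169.6 CPM, KEAP1 KO #2 had 80.7, 78.5 and 135, KEAP1 KO #3 had 89.3, 86.3 and 153 and NRF2 KO had 119, 112 and 201. Replicate 3 was the highest of each line, and the same held for Scd2, which ranged from 319 to 889.7 CPM. On average over both genes replicate 3 lay 0.44 to 0.67 above its line's mean on the log2 scale. The log2 fold changes of Scd1 were -0.55, -0.97 and -0.81 in the clones, with adjusted p of 0.28, 0.051 and 0.094. Of the 31-base stretches of Scd1 8.14%, and of those of Scd2 6.81%, occur in other transcripts, chiefly Scd3.

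The clones were also compared with each other. Between KEAP1 KO #1 and KEAP1 KO #2, 4 members were higher and 1 was lower in KEAP1 KO #1, 12.5% and 3.12%, where 7.15% and 3.94% of all genes were. The 4 were Fads2, Dhcr7, Elovl5 and Stard4, and the 1 was Acly. Between KEAP1 KO #1 and KEAP1 KO #3, 3 were higher and 1 was lower, 9.38% and 3.12%, against 7.7% and 4.55% of all genes. KEAP1 KO #3 and KEAP1 KO #2 differed in no member by limma, with 4 at an unadjusted p under 0.05, where 0.375% of all genes were higher, 0.389% lower and 8.22% at an unadjusted p under 0.05. The Acly calls, the only ones lower in KEAP1 KO #1, were lost on leaving out the samples named above, which makes both counts 0.

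Against NRF2 KO, the mean of the 3 KEAP1 KO clones was lower for 10 members and higher for 1, 31.2% and 3.12%, where 12.31% and 13.6% of all genes were. The 10 were Fads2 (-2.82), Insig1 (-1.05), Fads1 (-0.99), Pmvk (-0.78), Mvk (-0.77), Lss (-0.70), Dhcr7 (-0.63), Sc5d (-0.57), Scap (-0.41) and Stard4 (-0.40). The 1 was Sqle (0.50, adjusted p = 0.0427), a call lost on leaving out any of 9 samples, namely the 3 of KEAP1 KO #1 and replicates 1 and 2 of KEAP1 KO #2, replicates 1 and 2 of KEAP1 KO #3 and replicates 1 and 3 of NRF2 KO (adjusted p up to 0.294), while 2 members were higher without LL2 WT replicate 3. Without NRF2 KO replicate 2, in which sterol genes were highest, 6 members were lower and 6 higher, and Mvk, Pmvk, Sc5d and Stard4 were no longer called (adjusted p 0.11, 0.0717, 0.116 and 0.149). Mvk, Pmvk and Sc5d were also lost without NRF2 KO replicate 1 (adjusted p 0.11, 0.0804 and 0.0649). The test of this mean uses the spread between samples within lines and none of the spread between clones, and NRF2 KO is 1 clone. A lower mean need not hold for each clone. Every clone sample lay below every NRF2 KO sample for Fads2, Insig1, Fads1, Lss and Scap. For Pmvk, Mvk, Dhcr7, Sc5d and Stard4, samples of at least 1 clone overlapped those of NRF2 KO.

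Further genes of these pathways were listed beside the 32, and their counts were not recomputed under other scalings. Of 16 tested sterol pathway genes outside the 32, 6, 8 and 8 rose in KEAP1 KO #1, #2 and #3, while 0, 2 and 2 fell. These are 37.5%, 50% and 50% risen and 0%, 12.5% and 12.5% fallen, where 15.9%, 17.3% and 16.6% of all tested genes rose and 7.25%, 14.6% and 14.8% fell. Pgrmc1, a membrane heme-binding protein that partners cytochrome P450 enzymes of sterol synthesis, was at 93.7, 87.5 and 117 CPM in LL2 WT and 87.0, 95.2 and 102 in NRF2 KO. By line, KEAP1 KO #1 had 489, 618 and 509.6 CPM, KEAP1 KO #2 had 636, 659.8 and 431 and KEAP1 KO #3 had 855, 844 and 725, and its log2 fold changes were 2.44 (SE 0.16, adjusted p = 5.39e-07), 2.52 (SE 0.16, adjusted p = 2.26e-07) and 3.03 (SE 0.16, adjusted p = 3.57e-08). Of 22 tested fatty acid pathway genes outside the 32, 9, 8 and 8 rose and 2, 3 and 3 fell in the 3 clones. The shares were 40.9%, 36.4% and 36.4% risen and 9.09%, 13.6% and 13.6% fallen, to be set against the shares of all genes just given. In NRF2 KO 1 fell, or 4.55%, where 0.491% of all genes did.

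That gene was Me1, malic enzyme, which makes NADPH for fatty acid synthesis. It was at 44.8, 49.8 and 45.3 CPM in LL2 WT and 24.0, 25.0 and 18.5 in NRF2 KO, the lowest line. Samples of KEAP1 KO #1 had 132, 122 and 133 CPM, KEAP1 KO #2 had 129.6, 125 and 123 and KEAP1 KO #3 had 142, 143 and 155, with log2 fold changes of 1.47 (SE 0.10, adjusted p = 9.93e-07), 1.43 (SE 0.10, adjusted p = 6.89e-07) and 1.65 (SE 0.10, adjusted p = 1.89e-07), and in NRF2 KO the value was -1.06 (SE 0.10, adjusted p = 0.000262). Fitted on NRF2 KO and LL2 WT alone the last call was lost (adjusted p = 0.131). Of its 31-base stretches 30.0% occur in other transcripts, chiefly Gm7049. Of 9 tested genes of the liver X receptors, cholesterol efflux and esterification, 2, 2 and 1 rose and 0, 1 and 2 fell in the clones. That is 22.2%, 22.2% and 11.1% risen and 0%, 11.1% and 22.2% fallen, near the 15.9%, 17.3% and 16.6% and the 7.25%, 14.6% and 14.8% of all genes. By limma none passed in NRF2 KO, with 1 of the 9 at an unadjusted p under 0.05, as were 11.2% of all genes.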

How the data were processed

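RNA of 15 samples, 3 from each of 5 lines, was sequenced from polyA-selected libraries. The deposited values are CPM per gene, which the authors made with kallisto and which sum to between 999412 and 999525 per sample. The study's methods name GRCm38.p6 transcripts and the submitters' processing notes name GRCm39, and coordinates here are those of GRCm38.p6. CPM kept no whole reads, so depth is unknown and no count test was run. One unnamed entry (0.0214% to 0.0491% of the CPM) was left out.

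Values were fitted as log2(CPM + 0.1) with limma 3.58.1 in R 4.3.3, with a mean per line and a trended prior, over the 14652 genes whose CPM summed to at least 3 over the 15 samples. The other 21228 were removed. P-values were adjusted by Benjamini-Hochberg over all tested genes. The fit was tested on simulated data with independent noise and, for each gene, the same spread in every line. That simulation does not cover the unequal spread between lines or the shared replicate deviations of these data.

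The members and gene lists were chosen with earlier results of these data known. Values in every sample are given for the SREBP and INSIG genes, for members with the largest passing changes in a line or between clones, and for those that passed in all 3 clones or in opposite directions. Of the other pathway genes, the 2 largest passing in each line are named. Scd1 and the neighbours of Fads2 were described after their values were seen. In all, 27 alternatives were run: other pseudocounts, filters and scalings, only the lines compared, a replicate block, replicate 3 as a batch term, sample weights, each sample left out in turn and, chosen after seeing the data, replicates 1 and 2 only.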

Additional observations from a re-analysis of the deposited data

Results flagged for a closer look

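Values below are log2 differences whose own limma test between lines had an adjusted p under 0.05, and they follow from the comparisons above.

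The mean of the 3 KEAP1 KO clones differed from NRF2 KO for 11 members, by a test that holds none of the spread between clones. The differences were -2.82 for Fads2 (adjusted p = 6.4e-07), -0.988 for Fads1 (7.43e-05) and -1.05 for Insig1 (0.000483). They were -0.632 for Dhcr7 (0.00486), -0.702 for Lss (0.00645), -0.411 for Scap (0.00695) and -0.781 for Pmvk (0.0118). They were -0.569 for Sc5d (0.0171), -0.771 for Mvk (0.0227) and -0.402 for Stard4 (0.0229), and 0.497 for Sqle (0.0427).

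KEAP1 KO #1 differed from KEAP1 KO #2 for 5 members, by 0.628 for Elovl5 (adjusted p = 5.56e-05), 1.42 for Fads2 (0.00368), 0.8 for Dhcr7 (0.00985), -0.786 for Acly (0.0119) and 0.635 for Stard4 (0.0135). It differed from KEAP1 KO #3 for 4, by 2.01 for Fads2 (0.000367), 0.485 for Elovl5 (0.000372), -0.696 for Acly (0.0205) and 0.588 for Dhcr7 (0.0413). What sets the clones apart was not tested.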

How the results depend on the processing

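Of 60 named values past the threshold, 37 stayed past it in all 27 alternatives, among them Fads1 and Fads2 in the 3 clones, Insig1 and Fasn in KEAP1 KO #2 and #3, and Dhcr7 in both of these. The 60 include values of Pgrmc1, Fads3 and Me1, which are not members and were named for their large changes. All of theirs but Me1 in NRF2 KO are among the 37, so a smaller share of the members' own values was kept. The cause of the changes below was not tested. Apart from the rescaled and quantile normalized CPM, the numbers of all genes called were not computed for the alternatives. Whether the member counts given there are particular to these genes was not tested. CPM carry no depth, so precision at low values could not be set.

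In KEAP1 KO #1 against LL2 WT, the number of members that rose was 1 with no filter on low values, 0 with CPM rescaled by the median ratio, 0 with quantile normalization, 0 with only the lines compared, 4 with the replicate block, 5 with replicate 3 as a batch term and 9 with sample weights. The number that fell was 8 with the block, 8 with the batch term, 10 with weights and 9 with replicates 1 and 2 only. The number past 2-fold was 2 with rescaled CPM, quantile normalization or replicates 1 and 2 only and 3 with weights.

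In KEAP1 KO #2, 9 rose with weights, and 17 fell with the block, the batch term or replicates 1 and 2 only and 19 with weights, while 10 were past 2-fold with replicates 1 and 2 only. In KEAP1 KO #3, 7 rose with the block or batch term and 11 with weights, 11 fell with the block or batch term and 13 with weights, and 5 were past 2-fold with the block or batch term and 6 with weights or replicates 1 and 2 only. In NRF2 KO, 12 rose, 5 fell and 1 was past 2-fold with weights, and 2 fell with the block or batch term.

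Between KEAP1 KO #1 and #2, 9 were higher with the block, 8 with the batch term, 14 with weights and 10 with replicates 1 and 2 only, and 2 were lower with quantile normalization, only the lines compared, the block, the batch term or replicates 1 and 2 only and 3 with weights. Between KEAP1 KO #1 and #3, 6 were higher with the block or weights and 5 with the batch term, and 4 were lower with only the lines compared, 2 with the block, the batch term or replicates 1 and 2 only and 3 with weights. Between KEAP1 KO #3 and #2, 8 were higher with weights. For the mean of the clones against NRF2 KO, 0 were higher with no filter, rescaled CPM or quantile normalization, 5 with the block, 4 with the batch term and 6 with weights. With weights 31 members passed the F test. The median log2 fold change was -0.44 in KEAP1 KO #2 with quantile normalization and -0.50 with replicates 1 and 2 only, and -0.33 and -0.085 in KEAP1 KO #3 with quantile normalization and weights.

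Leaving out each sample in turn gave 0 to 4, 1 to 4, 2 to 7 and 0 to 0 members higher in KEAP1 KO #1, #2, #3 and NRF2 KO, 2 to 3, 8 to 15, 5 to 9 and 0 to 0 lower, and 1 to 3, 5 to 9, 3 to 7 and 0 to 0 past 2-fold. It gave 3 to 5 higher and 0 to 1 lower between KEAP1 KO #1 and #2, 2 to 4 and 0 to 1 between #1 and #3, and 0 to 6 and 6 to 13 for the clones against NRF2 KO. The F test gave 10 to 18. The medians ran from -0.26 to 0.00 (0.0023 without LL2 WT replicate 2), -0.44 to -0.32, -0.28 to -0.11 and -0.19 to 0.21.

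Directions that turned were all of values past no threshold, apart from the median in KEAP1 KO #1 above. Srebf2 in KEAP1 KO #1 was -0.070 with rescaled CPM and -0.096 after quantile normalization. In KEAP1 KO #2 it was -0.079 after quantile normalization and -0.027 with replicates 1 and 2 only, and in NRF2 KO -0.016 and -0.024 after the 2 scalings. Insig1 in NRF2 KO was 0.19 with weights and 0.057 with replicates 1 and 2 only, and Insig2 in KEAP1 KO #2 was 0.087 with the latter. With each sample left out in turn, Srebf2 ran from -0.040 to 0.083 in KEAP1 KO #1, from -0.075 to 0.083 in KEAP1 KO #2 and from -0.050 to 0.092 in NRF2 KO. Srebf1 in NRF2 KO ran from -0.34 to 0.046, Insig1 in NRF2 KO from -0.14 to 0.15, Insig2 in KEAP1 KO #2 from -0.22 to 0.18 and Insig2 in KEAP1 KO #3 from -0.0097 to 0.39.

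Rescaling moved the median of all genes in KEAP1 KO #1 by -0.101, and the share of its calls that were higher went from 68.7% to 48% (51.4% with quantile normalization). Between LL2 WT and the knockout lines, samples of number 2 and of number 3 shared deviations, while those of number 1 hardly did. Samples were not paired by number outside the replicate block. Same-numbered samples correlated at -0.0188 to 0.0860 for number 1, 0.267 to 0.529 for number 2 and 0.437 to 0.631 for number 3 in their deviations over 11676 genes, and each sample correlated best with its own number only for KEAP1 KO #1 against LL2 WT. Between KEAP1 KO #1 and the other clones number 1 stayed below 0.1 as well (0.0267 and -0.0221). Between KEAP1 KO #3 and #2 all 3 numbers were above it, at 0.278, 0.126 and 0.546, and with the block, as without it, 0 members were higher and 0 lower.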
